A study of Mus musculus with 8 samples.

Results

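The HSP70 and HSP40 chaperones of mouse germ cells were described at 15 days after birth in 8 C57BL/6 males, of which 4 were *Mgat2*[F/F] (control) and the other 4 were *Mgat2*[F/F]:*Stra8*-iCre (cKO). Both genotypes carried the floxed *Mgat2* alleles. In cKO males the *Stra8* promoter drove the Cre recombinase in spermatogonia. Cells of lineages in which this promoter was never active keep the gene. Germ cells were freed from the testes with collagenase, DNase and trypsin, with no sort on a marker, and those of each male made 1 non-stranded, polyadenylated RNA-seq library. Members were the genes whose symbol begins with Hspa, Dnaja, Dnajb or Dnajc followed by a digit. Of 62 such names among 55357 genes in the table, 6 were left out, namely *Hspa5* and *Dnajb9* and names that mark pseudogenes. This left 56 members, of which 12 are HSP70 genes (Hspa) and 44 are HSP40 genes (4 Dnaja, 12 Dnajb and 28 Dnajc). *Hspa2*, *Hspa1l*, *Dnajb13*, *Dnajb3* and *Dnajb8* were set apart as the 5 testis forms, and the other 51 were counted as ubiquitous.

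HSP70 proteins bind exposed hydrophobic stretches of unfolded or newly made proteins in a cycle that ATP drives. HSP40 proteins, also called J proteins, bring clients to HSP70 and start its ATP hydrolysis through their J domain, and nucleotide exchange factors then release ADP and the client. Spermatogenesis has forms of its own. HSPA2 appears with meiosis and belongs to the synaptonemal complex of the pachytene spermatocyte, HSPA1L and DNAJB3 are known from spermatids, and DNAJB13 is a protein of the radial spokes of the sperm flagellum.

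A gene was tested when its TPM (transcripts-per-million, the length-corrected level given by the authors) reached 1 in at least 1 sample, which kept 20187 genes and 51 members. Levels are given below as CPM, counts-per-million units after edgeR's TMM normalization, and differences as log2 fold changes (log2FC) of cKO over control, each with its standard error (SE). The totals of expected counts ran from 12584726 to 15907505 per library. At these depths a floor of 3 counts was worth 0.189 to 0.238 CPM, which covers counting error only. *Mgat2*, the targeted gene, was at 69.8, 31.8, 64.3 and 59.8 CPM in control replicates 1 to 4, against 35.3, 20.1, 37.6 and 16.0 CPM in cKO replicates 1 to 4 (log2FC -1.05, SE 0.36, edgeR adjusted p = 0.47, 0.025 from DESeq2). Its groups overlapped. The reads carry no strand, and 13.8% of the exon bases of *Mgat2* overlap genes on the opposite strand, among them *Rpl36al*, whose log2FC was -1.25. Replicate 1 of both genotypes stood apart from replicates 2 to 4. The summed TPM of 9 pachytene markers was 1841 in control replicate 1 and 430 to 757 in the other controls, against 571 in cKO replicate 1 and 142 to 193 in the other cKO samples. The summed TPM of 8 immediate-early genes was 746 and 789 in replicate 1 of control and cKO and 2330 to 2883 in the other 6 libraries. Spermatogonial markers summed to 829 to 987 TPM in controls and 957 to 1165 TPM in cKO samples, and 7 spermatid markers to 13.3 to 48.4 TPM in controls, highest in replicate 1, and 9.45 to 19.6 TPM in cKO samples. Most of that was *Dbil5*, and *Prm1* and *Tnp2* were at 0. Sertoli cell markers were present at 4651 to 5683 summed TPM in controls and 4750 to 5705 TPM in cKO samples, most of it *Clu* at a mean of 4255 TPM. *Amh*, a defining Sertoli cell gene, had a mean of 104 TPM, so markers of Sertoli cells were present beside those of germ cells.

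No member passed the adjusted p of 0.05 in edgeR's quasi-likelihood test, in which 8 of all 20187 genes (0.0396%) passed. Without adjustment, 7 members were lower in cKO at a p under 0.05 in edgeR, or 13.7% of the 51 tested against 6.28% of all genes. These were *Dnajb13*, *Hspa2*, *Dnajc27*, *Dnajb2*, *Hspa4l*, *Dnajc21* and *Dnajb1*. Only *Hspa8* was higher in cKO at a p under 0.05, or 1.96% of the members against 2.62% of all genes. DESeq2 called 1 member, *Dnajb1*, and 1.5% of all genes. In 3 members, *Dnajb1*, *Dnajb2* and *Dnajc27*, all cKO samples lay below all controls, a share of 5.88% against 3.03% of all genes. In 2 members, *Hspa8* and *Dnajc13*, all cKO samples lay above all controls, a share of 3.92% against 2.47%. The p-values measure the spread among these mice. In RNA of a cell mixture, fewer cells of a type and less RNA per cell cannot be told apart.

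**Figure D1:**
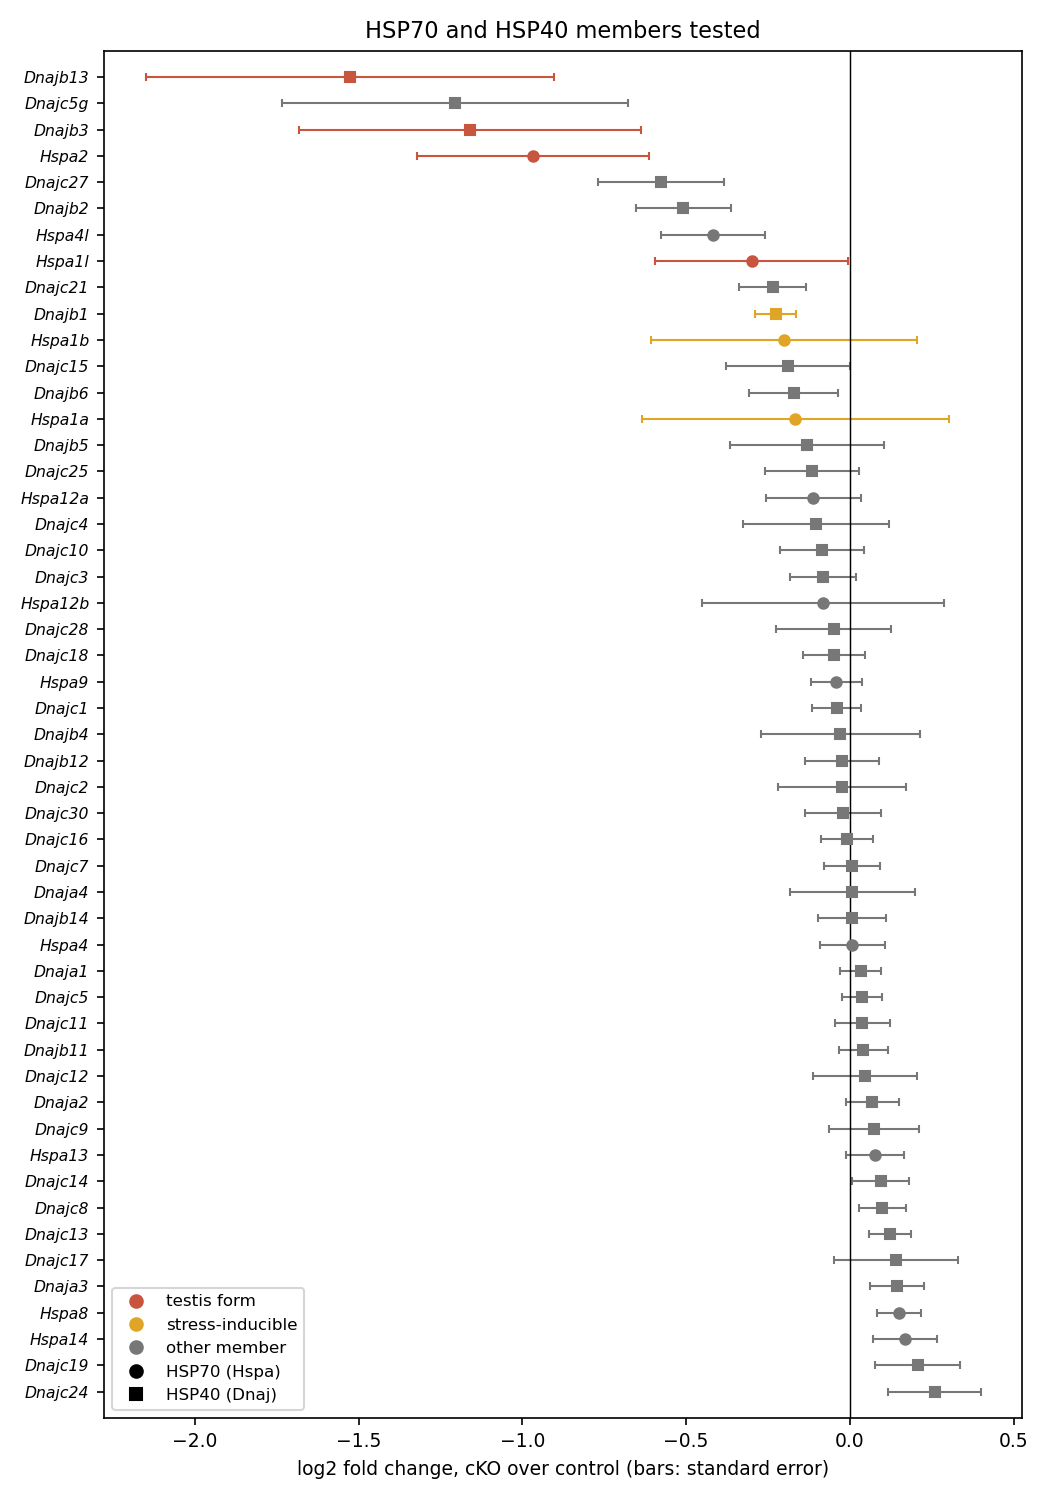
Log2 fold change of cKO over control (horizontal axis) for the 51 tested members, with bars for the SE of edgeR's fit, coloured by testis form, stress-inducible member or other member, and drawn as circles for HSP70 and squares for HSP40 genes. The members spread from -1.53 for *Dnajb13* to 0.26 for *Dnajc24*, and 42 of the 51 lie within 0.25 of 0. Of all genes tested 61.9% lie within 0.25 of 0.

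When replicates 2 to 4 were compared alone, a setting chosen after seeing replicate 1, 5 members passed the adjusted p of 0.05 in edgeR, all of them lower in cKO. They were *Dnajb13*, *Dnajc5g*, *Dnajb3*, *Dnajc27* and *Dnajb2*, or 9.80% of the tested members, against 3.78% of all genes that passed in this direction. With all 8 libraries and a term for replicate 1, also chosen after seeing it, *Hspa2* and *Dnajb1* passed besides these 5, all lower in cKO, or 13.7% of the tested members against 6.52% of all genes. In replicates 2 to 4 all cKO samples lay below all controls for 10 members, a share of 19.6% against 10.6% of all genes. Across all 8 libraries the median log2FC was -0.03 for the 51 members and 0.01 for all genes. Of the members 58.8% were lower in cKO, against 48.6% of all genes. The interquartile range ran from -0.17 to 0.04 for the members and from -0.22 to 0.14 for all genes.

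The members differed widely in level, compared here per length as mean TPM over the 8 libraries. *Hspa8*, the constitutive HSP70 of the cytosol, was highest at 1315 TPM. *Dnaja1*, its class A partner, followed at 258 TPM and *Hspa2* at 244 TPM. Of the exon bases of *Dnaja1* 84.2% overlap other genes, among them *Smu1* on the opposite strand, which makes its level uncertain. The J proteins *Dnajc7* and *Dnajc8* were at 204 and 177 TPM, and the mitochondrial HSP70 gene *Hspa9* at 179 TPM. Among all 56 members the median was 32.6 TPM. The other testis forms were far lower, with *Dnajb3* at 26.3, *Dnajb13* at 4.70, *Hspa1l* at 2.17 and *Dnajb8* at 0.0225 TPM.

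*Hspa2* made up a smaller share of the transcripts of the 12 Hspa members in cKO samples than in most controls. *Hspa5*, left out by the member rule, is not in this sum. Its mean was 928 TPM in controls and 1013 TPM in cKO samples, so shares of all HSP70 transcripts would be lower. *Hspa2* was 21.8%, 10.6%, 11.9% and 8.78% of the summed TPM of the 12 Hspa genes in control replicates 1 to 4, against 10.1%, 6.26%, 6.58% and 6.10% in cKO replicates 1 to 4. Control replicate 1 held the largest share, and cKO replicate 1 lay above control replicate 4, so the groups overlapped. *Hspa8* made up 52.5% ± 4.99 (SD, n = 4) of the summed TPM of the 12 genes in controls and 59.7% ± 1.33 (SD, n = 4) in cKO samples. Shares of a sum depend on one another, so a lower share of *Hspa2* raises that of *Hspa8*. The summed TPM of the 12 genes was 2433 ± 44.8 (SD, n = 4) in controls and 2267 ± 60.8 (SD, n = 4) in cKO samples.

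**Figure D2:**
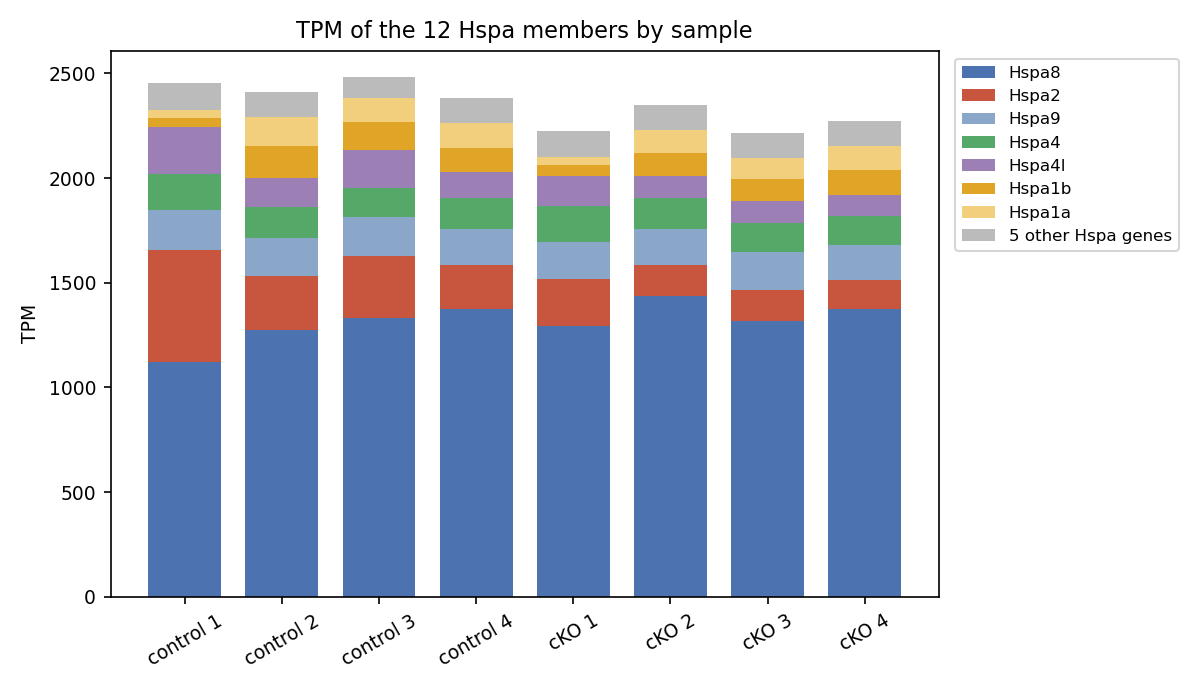
TPM of the 12 Hspa genes stacked for each of the 8 libraries (vertical axis in TPM), with the 7 most abundant genes coloured and 5 others summed. *Hspa8* fills 45.7% to 57.7% of the control bars and 58.0% to 61.1% of the cKO bars, *Hspa2* is tallest in control replicate 1, and the *Hspa1a* and *Hspa1b* segments are thinnest in replicate 1 of both genotypes.

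The testis forms were lower in cKO samples in all 4 members that could be tested, without passing the adjusted p. *Hspa2* (ENSMUSG00000059970), the meiotic HSP70, lies on the forward strand at chr12:76450151-76453712 of GRCm39 and its canonical transcript has 2 exons. Its CPM was 788, 359, 427 and 291 in control replicates 1 to 4, against 333, 212, 213 and 196 in cKO replicates 1 to 4. Control replicate 1 was the highest library, and only cKO replicate 1 reached above the lowest control. The means were 466 ± 221 CPM in controls and 238 ± 63.6 CPM in cKO samples (SD, n = 4 each), a log2FC of -0.97 (SE 0.35, edgeR adjusted p = 0.52). The two-sided exact permutation test over the 70 ways to assign 4 and 4 samples gave p = 0.0571, where 0.0286 is the smallest value it can give. With each library left out the log2FC ran from -1.17 to -0.59, the last without control replicate 1. It was -0.80 with replicates 2 to 4 alone (SE 0.15, edgeR adjusted p = 0.073) and -0.91 with a term for replicate 1 (edgeR adjusted p = 0.018). Of its exon bases 30.7% overlap *4930426I24Rik* on the opposite strand, whose level was 0.465 to 3.70 CPM.

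*Dnajb13* (ENSMUSG00000030708; chr7:100150133-100164167 of GRCm39, reverse strand), the radial spoke J protein, had the largest difference of any member. It was at 15.1, 6.16, 5.94 and 5.54 CPM in control replicates 1 to 4, against 6.31, 1.16, 1.05 and 2.84 CPM in cKO replicates 1 to 4. Replicate 1 was the highest library of each genotype, and cKO replicate 1 lay above every control but control replicate 1. The log2FC was -1.53 (SE 0.62, edgeR adjusted p = 0.54) and the two-sided exact permutation test gave p = 0.114. With replicates 2 to 4 alone it was -1.81 (SE 0.31, edgeR adjusted p = 1.4e-04). The counts behind it were 71 to 223 in controls and 15 to 95 in cKO samples. Of its exon bases 30.6% overlap *Ucp2* on the opposite strand, which was far more abundant at 253 TPM and had a log2FC of 0.10.

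*Dnajb3* (ENSMUSG00000081984; chr1:88132454-88133504 of GRCm39, reverse strand), the J protein of spermatids, is a gene of 1 exon with no overlap by another gene's exons. Its CPM was 38.8, 10.9, 12.8 and 8.04 in control replicates 1 to 4, against 11.3, 6.67, 6.28 and 7.30 in cKO replicates 1 to 4. Control replicate 1 was by far the highest library, and cKO replicate 1 reached into the control range. The log2FC was -1.16 (SE 0.52, edgeR adjusted p = 0.57; two-sided exact permutation p = 0.0857). Without control replicate 1 it was -0.42, and without cKO replicate 1 -1.38. With replicates 2 to 4 alone it was -0.65 (SE 0.20, edgeR adjusted p = 0.045).

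*Hspa1l* (ENSMUSG00000007033; chr17:35191664-35198261 of GRCm39, forward strand), the HSP70 of spermatids, was low in every library. It was at 2.51, 3.95, 2.46 and 4.45 CPM in control, against 1.93, 3.43, 3.00 and 2.48 CPM in cKO replicates 1 to 4. The groups overlapped, and replicate 1 was not the highest library of either genotype. The log2FC was -0.30 (SE 0.29, edgeR adjusted p = 0.79), and -0.13 without control replicate 4 or -0.17 without cKO replicate 1. Of its exon bases 71.5% overlap *Gm10501* on the opposite strand, which did not reach the TPM minimum. *Dnajb8*, a testis J protein that keeps proteins from aggregating, had 1 count in control replicate 4 and none in the other 7 libraries, and was not tested.

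The median log2FC was -1.06 for the 4 tested testis forms and -0.03 for the 47 tested ubiquitous members. The 4 spanned -1.53 to -0.30, and 26 of the ubiquitous members were lower and 21 higher in cKO. The testis forms' median moved with either replicate 1 library, to -0.50 without control replicate 1 and to -1.28 without cKO replicate 1. It was -0.73 with replicates 2 to 4 alone and -0.94 with a term for replicate 1. The ubiquitous members' median was 0.03, -0.02, 0.01 and -0.02 in those settings, in this order. Pachytene markers moved with the testis forms. Of the 9 markers 8 were lower in cKO (median log2FC -1.72), and their summed TPM was 430 to 1841 in controls and 142 to 571 in cKO samples. *Piwil1*, a defining gene of that stage, was at 168 to 645 CPM in controls and 43.5 to 155 CPM in cKO samples. Of 7 leptotene and zygotene markers 3 were lower and 4 higher in cKO (median log2FC 0.0023). Their summed TPM was 766 to 1288 in controls and 770 to 1054 in cKO samples. The part of pachytene cell number in the levels of the testis forms was not tested.

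**Figure D3:**
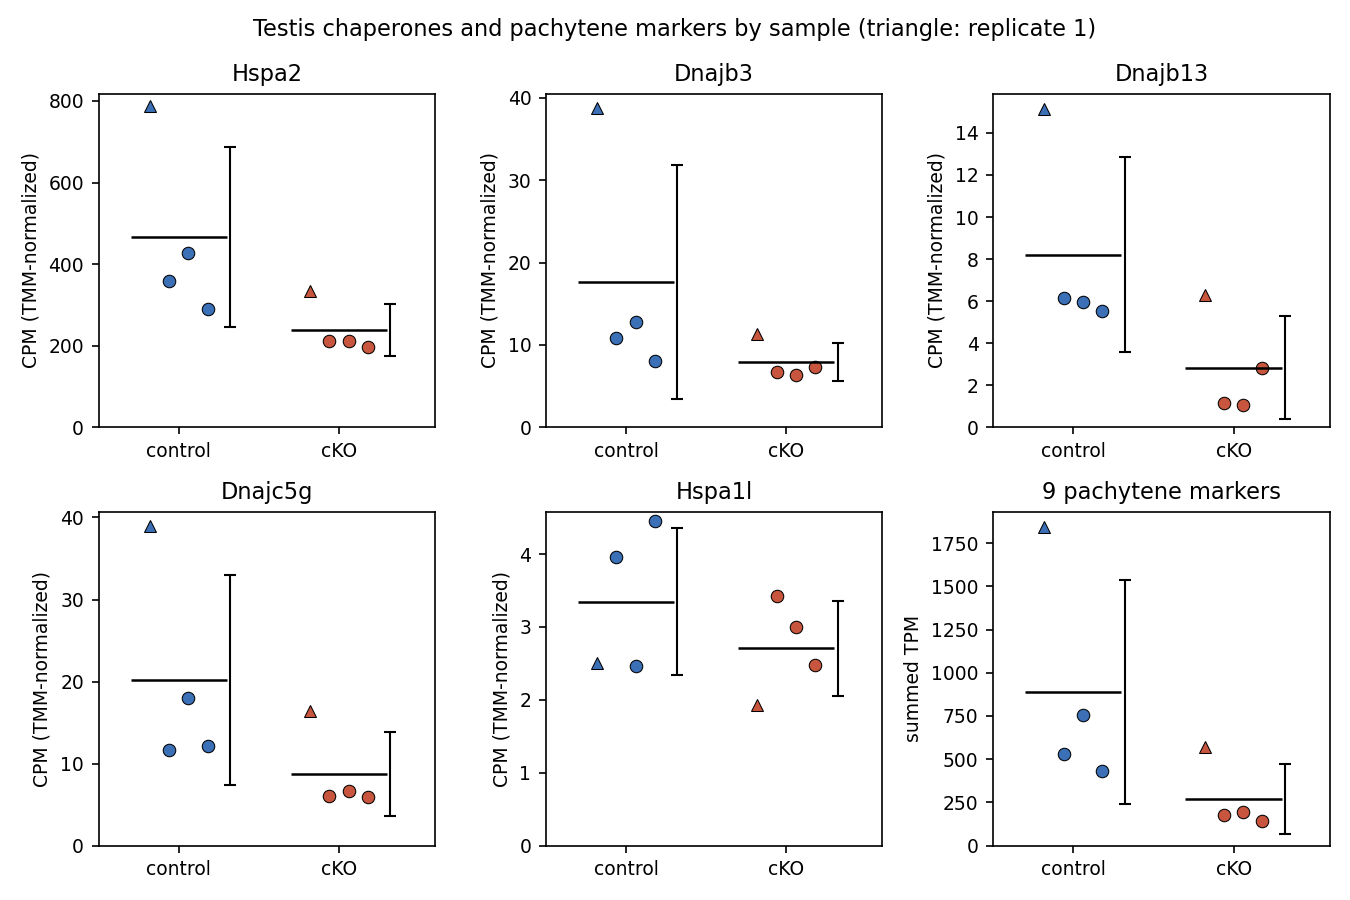
CPM of *Hspa2*, *Dnajb3*, *Dnajb13*, *Dnajc5g* and *Hspa1l* and summed TPM of 9 pachytene markers by genotype, with 1 symbol per library (triangles for replicate 1, circles for replicates 2 to 4), lines for the mean and bars for the SD. Control replicate 1 is the highest library in each panel but that of *Hspa1l*, and among replicates 2 to 4 each cKO sample lies below each control in all panels but that one.

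Outside the testis forms, *Dnajc5g*, *Dnajc27*, *Dnajb2* and *Dnajc21* had the most negative log2FC among J proteins. *Dnajc5g* (chr5:31263629-31269875 of GRCm39, forward strand), a cysteine string protein known from testis, was at 38.9, 11.7, 17.9 and 12.1 CPM in control, against 16.4, 6.02, 6.63 and 5.89 CPM in cKO replicates 1 to 4. Replicate 1 was again the highest of each genotype, and cKO replicate 1 reached above control replicates 2 and 4. Its log2FC was -1.21 (SE 0.53, edgeR adjusted p = 0.57). It was -0.67 without control replicate 1, -1.70 without cKO replicate 1, and -1.17 with replicates 2 to 4 alone (edgeR adjusted p = 3.0e-05).

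*Dnajc27* (chr12:4132562-4170261 of GRCm39, forward strand), a small GTPase with a J domain, was at 82.8, 45.2, 56.0 and 44.4 CPM in control, against 43.5, 34.0, 37.1 and 38.4 CPM in cKO replicates 1 to 4. All cKO samples lay below all controls, by the least between cKO replicate 1 and control replicate 4. The log2FC was -0.58 (SE 0.19, edgeR adjusted p = 0.44, two-sided exact permutation p = 0.0286, the smallest possible). It was -0.34 without control replicate 1 and -0.64 without cKO replicate 1. *Dnajb2* (chr1:75212712-75222340 of GRCm39, forward strand), which hands HSP70 clients to the proteasome, was at 63.9, 39.2, 44.5 and 40.5 CPM in control, against 34.9, 34.8, 32.2 and 30.4 CPM in cKO replicates 1 to 4. Its groups did not overlap in CPM, and the log2FC was -0.51 (SE 0.15, edgeR adjusted p = 0.35; two-sided exact permutation p = 0.0286). Without control replicate 1 the log2FC of *Dnajb2* was -0.32, and without cKO replicate 1 it was -0.53. In the authors' TPM the groups of *Dnajb2* overlapped, and the exact permutation test gave p = 0.0571. *Dnajc21*, a J protein of ribosome assembly, was at 59.3 to 78.0 CPM in controls and 53.8 to 63.7 CPM in cKO samples (log2FC -0.24, SE 0.10, edgeR adjusted p = 0.54).

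Among the stress-inducible members, *Hspa1a* and *Hspa1b* varied more among libraries than between genotypes. *Hspa1a* (ENSMUSG00000091971; chr17:35188166-35191132) and *Hspa1b* (ENSMUSG00000090877; chr17:35175412-35178214 of GRCm39, both on the reverse strand) are neighbouring genes of 1 exon that encode the heat-inducible HSP70. *Hspa1a* was at 69.4, 232, 197 and 199 CPM in control, against 68.5, 189, 174 and 189 CPM in cKO replicates 1 to 4. *Hspa1b* was at 75.2, 239, 220 and 185 CPM in control, against 90.5, 177, 167 and 191 CPM in cKO replicates 1 to 4. For both genes replicate 1 was the lowest library of each genotype, at 0.332 and 0.372 times the mean of replicates 2 to 4 for *Hspa1a* and at 0.350 and 0.507 times for *Hspa1b*. The log2FC was -0.17 for *Hspa1a* (SE 0.47, edgeR adjusted p = 0.95) and -0.20 for *Hspa1b* (SE 0.41, adjusted p = 0.92). The log2FC of *Hspa1a* turned to 0.08 without cKO replicate 1, and with each library left out that of *Hspa1b* ran from -0.46 to -0.01. With replicates 2 to 4 alone it was -0.18 for *Hspa1a* (SE 0.066, edgeR adjusted p = 0.13). For *Hspa1b* it was -0.27 in that setting (SE 0.082, edgeR adjusted p = 0.089). Both genes share many 75-base stretches, 54.2% of those of *Hspa1a* and 55.8% of those of *Hspa1b* being found in another gene as well, so the split of reads between them is uncertain. Their summed CPM was 145, 471, 417 and 384 in control and 159, 366, 342 and 380 in cKO replicates 1 to 4. The 8 immediate-early genes were low in the same libraries, and their part in the levels of *Hspa1a* and *Hspa1b* was not tested.

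*Dnajb1* (ENSMUSG00000005483; chr8:84334811-84339820 of GRCm39, forward strand), the J protein that works with the inducible HSP70, behaved otherwise. It was at 113, 111, 111 and 107 CPM in control, against 90.7, 98.0, 96.9 and 91.6 CPM in cKO replicates 1 to 4. The groups did not overlap, and replicate 1 did not stand apart. The means were 110 ± 2.41 CPM in controls and 94.3 ± 3.68 CPM in cKO samples (SD, n = 4 each), a log2FC of -0.23 (SE 0.064, edgeR adjusted p = 0.34, 0.030 from DESeq2). The two-sided exact permutation test gave p = 0.0286, on CPM and on TPM alike.

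**Figure D4:**
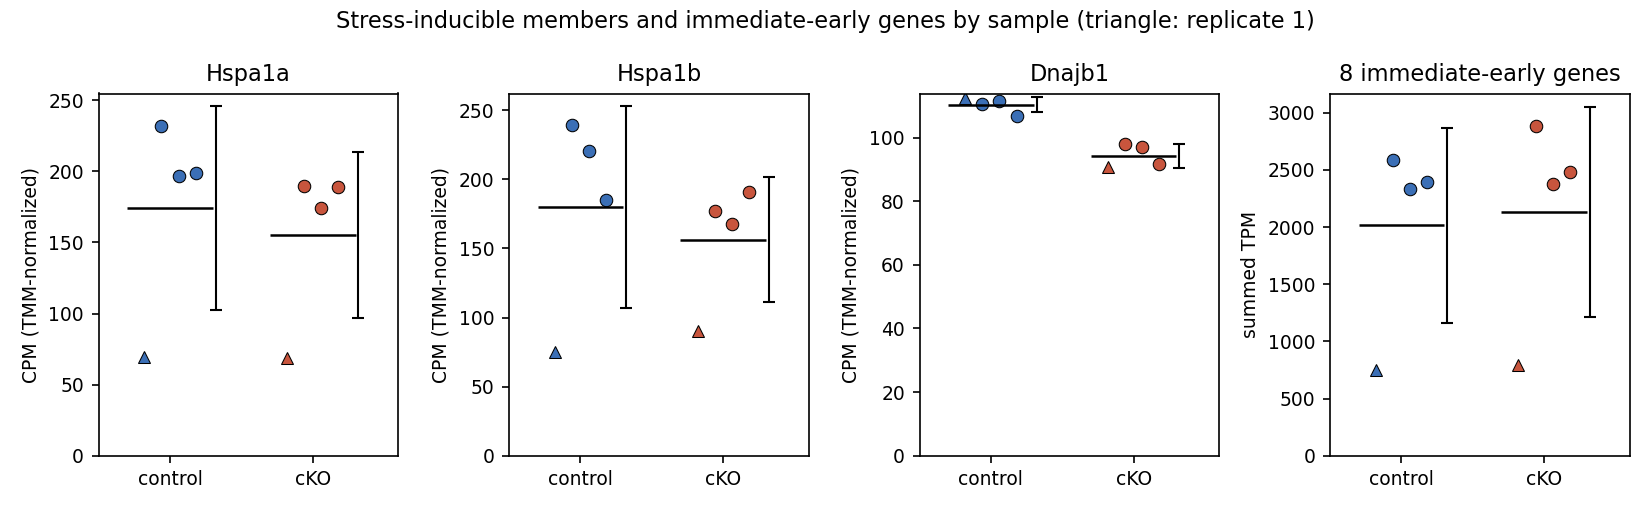
CPM of *Hspa1a*, *Hspa1b* and *Dnajb1* and summed TPM of 8 immediate-early genes by genotype, with 1 symbol per library (triangles for replicate 1), lines for the mean and bars for the SD. Replicate 1 is the lowest library of both genotypes for *Hspa1a*, *Hspa1b* and the immediate-early genes, and for *Dnajb1* the 4 cKO samples (90.7 to 98.0 CPM) sit below the 4 controls (107 to 113 CPM).

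The sequences before the start sites were read from GRCm39 for the canonical transcripts, 250 bases each, and searched on both strands. The heat shock element, the site of heat shock factors, is a row of units, GAA and TTC in turn. A pair of neighbouring units was searched as GAANNTTC and as TTCNNGAA. The first form was found before 6 of the 56 members (10.7%) and 6.33% of 21770 protein-coding genes, and the second before 2 members (3.57%) and 6.79% of genes. A row of 3 units was found before 0 members and 0.349% of genes. CCAAT boxes, searched as CCAAT, stood before 24 members (42.9%) and 36.5% of genes. *Hspa1a* and *Hspa1b* are shown because they share a unit pair at the same place, and *Dnajc27* because it carries the same 8 letters among the members lower in every cKO sample. *Dnajb3* and *Dnajb13* are shown as testis forms whose windows hold no unit pair. Capitals mark heat shock element unit pairs and CCAAT boxes.
*Hspa1a*, chr17:35191133-35191382, reverse strand: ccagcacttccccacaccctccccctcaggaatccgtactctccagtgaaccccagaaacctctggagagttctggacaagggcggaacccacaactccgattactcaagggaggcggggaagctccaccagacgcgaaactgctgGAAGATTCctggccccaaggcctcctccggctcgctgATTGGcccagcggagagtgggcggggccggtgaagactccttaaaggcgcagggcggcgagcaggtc
*Hspa1b*, chr17:35178215-35178464, reverse strand: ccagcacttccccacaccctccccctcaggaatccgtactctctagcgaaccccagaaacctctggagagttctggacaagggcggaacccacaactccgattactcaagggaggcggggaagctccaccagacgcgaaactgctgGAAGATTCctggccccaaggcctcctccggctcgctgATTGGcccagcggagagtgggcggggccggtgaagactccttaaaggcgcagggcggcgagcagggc
*Dnajc27*, chr12:4132312-4132561, forward strand: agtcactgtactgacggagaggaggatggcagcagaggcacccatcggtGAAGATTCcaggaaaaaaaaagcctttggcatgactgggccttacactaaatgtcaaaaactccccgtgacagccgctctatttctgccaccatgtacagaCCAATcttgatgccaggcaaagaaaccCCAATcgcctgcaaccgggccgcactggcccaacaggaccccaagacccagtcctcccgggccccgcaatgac
*Dnajb3*, chr1:88133505-88133754, reverse strand: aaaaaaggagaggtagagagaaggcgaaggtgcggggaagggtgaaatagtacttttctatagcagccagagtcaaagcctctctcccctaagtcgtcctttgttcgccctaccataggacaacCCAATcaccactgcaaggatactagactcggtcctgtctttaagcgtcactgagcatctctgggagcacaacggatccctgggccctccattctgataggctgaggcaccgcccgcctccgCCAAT
*Dnajb13*, chr7:100164168-100164417, reverse strand: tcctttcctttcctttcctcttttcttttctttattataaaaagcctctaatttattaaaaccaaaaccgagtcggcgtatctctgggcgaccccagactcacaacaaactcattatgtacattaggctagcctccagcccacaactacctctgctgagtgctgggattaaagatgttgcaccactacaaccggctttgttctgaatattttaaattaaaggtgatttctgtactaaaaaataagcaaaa
The *Hspa1a* and *Hspa1b* windows were identical at 247 of 250 bases, and both held GAAGATTC from 104 to 97 bases before the start and a CCAAT box on the other strand from 67 to 63 bases before it. In *Dnajc27* the same 8 letters lay from 201 to 194 bases before the start. *Dnajb3* held 2 CCAAT boxes and no heat shock element unit pair, and *Dnajb13* and *Hspa2* held neither motif. The *Hspa2* window, chr12:76450436-76450685, lies inside the span of the gene, and all 250 of its bases are annotated exon. *Dnajb1* held no unit pair either. *Hspa1l* starts 531 bases from *Hspa1a* on the other strand and its own window held only a CCAAT box. A match or its lack describes these letters and this window alone.

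Among the constitutive HSP70 and HSP110-like members, *Hspa8* was the only one with unadjusted p under 0.05 and a higher level in cKO. Its CPM was 1538, 1671, 1753 and 1649 in control and 1785, 1936, 1793 and 1823 in cKO replicates 1 to 4. All cKO samples lay above all controls in CPM (log2FC 0.15, SE 0.068, edgeR adjusted p = 0.56; two-sided exact permutation p = 0.0286). In the authors' TPM the groups overlapped, at 1121 to 1375 in controls and 1291 to 1436 in cKO samples, and the exact permutation test gave p = 0.286. Of the 75-base stretches of *Hspa8* 68.0% also occur in another gene, pseudogenes among them, which makes its level uncertain. *Hspa4l*, an HSP110-type exchange factor, was at 472, 311, 392 and 277 CPM in control, against 313, 257, 261 and 254 CPM in cKO replicates 1 to 4. Replicate 1 was the highest of each genotype and cKO replicate 1 lay inside the control range (log2FC -0.42, SE 0.16, edgeR adjusted p = 0.50). With each library left out the log2FC of *Hspa4l* ran from -0.52 to -0.27, the last without control replicate 1. Its relative *Hspa4* was at 320 to 405 CPM in controls and 314 to 403 CPM in cKO samples, and its log2FC of 0.01 was within its SE of 0.10. *Hspa14*, the ribosome-associated HSP70, had a log2FC of 0.17 (SE 0.097), and of 0.11 without control replicate 3.

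None of the 12 members placed in the mitochondrial, endoplasmic reticulum and nuclear groups was below an unadjusted p of 0.05. The role groups were chosen lists, and 28 tested members were in none of them. In mitochondria, *Hspa9* had a log2FC of -0.04, *Dnaja3* of 0.14, *Dnajc15* of -0.19 and *Dnajc19*, part of the import motor, of 0.21. *Dnaja3* was at 85.7 CPM in cKO replicate 1 and 73.8 to 74.9 CPM in the other cKO samples. In the endoplasmic reticulum the 6 listed members, among them the BiP partner *Dnajb11* at 0.04 and *Hspa13* at 0.08, lay between -0.12 and 0.08. The listed nuclear members *Dnajc8* and *Dnajc17* had log2FCs of 0.10 and 0.14. The 4 class A J proteins lay between 0.01 and 0.14, with *Dnaja1* at 0.03 and *Dnaja2* at 0.07, but *Dnaja2* and *Dnaja4* changed sign with other settings. *Dnajc24*, a J protein of diphthamide synthesis, had the largest positive value of any member, at 12.6 to 14.0 CPM in controls and 13.0 to 18.4 CPM in cKO samples (log2FC 0.26, SE 0.14, edgeR adjusted p = 0.62).

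By subfamily, the median log2FC was -0.10 for the 12 Hspa genes, 0.05 for the 4 Dnaja, -0.15 for the 10 tested Dnajb and -0.02 for the 25 tested Dnajc genes. Among abundant J proteins, *Dnajb6*, which holds back protein aggregation, was at -0.17 (-0.0035 without control replicate 1 and -0.23 without cKO replicate 1). *Dnajc2*, the ribosome-bound partner of *Hspa14*, was at -0.03, and *Dnajc7*, which binds HSP70 and HSP90, at 0.01. Of the *Dnajb6* stretches of 75 bases 36.6% are shared with other genes. The distant HSP70 relatives *Hspa12a* and *Hspa12b* were at -0.11 and -0.08. *Dnajb7*, *Dnajc22*, *Dnajc5b* and *Dnajc6* were not tested besides *Dnajb8*. They had 0 to 8, 0 to 8, 0 and 2 to 14 counts per library.

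Replicate 1 differed from replicates 2 to 4 in both genotypes for many members. In 23 of the 51 tested (45.1%) it was the highest library of both genotypes, against 21.1% of all genes. In 7 members, *Dnaja4*, *Dnajb4*, *Dnajc25*, *Dnajc7*, *Hspa1a*, *Hspa1b* and *Hspa8*, it was the lowest of both, or 13.7% against 19.4% of all genes. *Hspa2*, *Dnajb3* and *Dnajb13* were among the 23, as were *Dnajc5g*, *Dnajc27*, *Dnajb2* and *Hspa4l*. *Hspa2* in control replicate 1 was at 2.19 times the mean of the other controls, and in cKO replicate 1 at 1.61 times the mean of the other cKO samples.

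Factors that work with HSP70 and HSP40 were taken as a list of 47 genes, of which 44 were tested. None passed the adjusted p over all 8 libraries in edgeR without covariates or in DESeq2. At an unadjusted p under 0.05, 3 were lower in cKO (6.82%, against 6.28% of all genes) and 1 was higher (2.27%, against 2.62%). In all 21 were lower and 23 higher (median log2FC 0.01). With replicates 2 to 4 alone 3 passed the adjusted p in edgeR, *Hspb6*, *Hspb9* and *St13*, all lower in cKO, or 6.82% against 3.78% of all genes. *Hsf5*, a heat shock factor of meiotic germ cells, was at 117, 52.9, 77.3 and 44.2 CPM in control, against 53.2, 28.6, 27.4 and 28.5 CPM in cKO replicates 1 to 4 (log2FC -1.08, SE 0.38, edgeR adjusted p = 0.49). The stress regulators *Hsf1* and *Hsf2* were at -0.13 and 0.09. Of 9 tested small heat shock proteins 7 were above 0 and 2 below (median log2FC 0.19, highest 0.70), and among the 7 above 0 none had an unadjusted p under 0.05. The 2 below were *Hspb6* and *Hspb9*. *Hspb6* had a log2FC of -0.83 (edgeR adjusted p = 0.35), and *Hspb9*, which is known from testis, of -1.50 (adjusted p = 0.78). *St13*, which joins HSP70 to HSP90, was at -0.22, the exchange factor *Bag5* at -0.42, and *Hspd1*, the mitochondrial chaperonin, at 0.16 (adjusted p = 0.49).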

How the data were processed

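RNA-seq data of 8 libraries, 1 per mouse, were used. The authors aligned 150 bp paired-end reads to mm39 with STAR 2.7.9a and deposited RSEM 1.3.3 expected counts and TPM values of 55357 genes, without normalization between samples. Non-stranded reads of overlapping genes cannot be told apart, and RSEM divides reads that several genes share by its model. Expected counts were rounded, values midway between whole numbers to the even one (6.37% of all values, zeros included, were not whole). A TPM of 1 in any sample was the minimum for testing with edgeR 4.0.16 (TMM, robust quasi-likelihood fit, no covariate, Benjamini-Hochberg over 20187 genes, threshold 0.05). Single members were also compared by exact permutation tests, whose p-values are not adjusted. Alternatives were DESeq2 1.42.0, its size factors, library totals, no TPM filter, limma 3.58.1 (voom, and trend on log2(TPM + 1)), the replicate block, each library left out and, chosen after the data were seen, replicates 2 to 4, a term for replicate 1 and midway values rounded up.

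Members, lists and roles were chosen with earlier results of these data known. Named were *Mgat2*, the testis forms, every Hspa gene, the 3 most abundant of each J class, the 3 largest differences either way, untested members, and members or partners with unadjusted p under 0.05 or called by edgeR, DESeq2 or with the block. *Dnaja4*, *Dnajb4*, *Dnajc13*, *Dnajc15*, *Dnajc17*, *Dnajc25*, *Hsf1*, *Hsf2*, *Rpl36al* and *Dbil5* were named after their values were seen. Positions, exon overlaps and 75-base stretches came from GENCODE M39 on GRCm39. Protein sequences were not used here. No column of another sample was present. Libraries of a group differed by more than sampling noise. The fits were tested on simulated data. R 4.3.3, Python 3.11.15, scipy 1.17.1 and pandas 2.3.3 were used.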

Additional observations from a re-analysis of the deposited data

Results flagged for a closer look

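In groups of 4 libraries, the highest or lowest was set against the others by Dixon's ratio. Of 58 groups of named members 10 passed its critical value for 4 samples. Chance passes about 1 in 20 independent groups, but these groups share the same 8 libraries, and the share over all genes was not computed. All 10 concerned a replicate 1 library. Over all genes, replicate 1 was the highest library of both genotypes in 21.1% and the lowest in 19.4%. In control replicate 1, high values were 15.1 CPM for *Dnajb13* (next 6.16), 38.8 CPM for *Dnajb3* (next 12.8), 405 CPM for *Hspa4* (next 326) and 76.4 CPM for *Dnaja3* (next 68.1), and *Dnajc7* was low at 175 CPM (next 198). In cKO replicate 1, high values were 333 CPM for *Hspa2* (next 213), 16.4 CPM for *Dnajc5g* (next 6.63), 313 CPM for *Hspa4l* (next 261) and 85.7 CPM for *Dnaja3* (next 74.9), and *Hspa1a* was low at 68.5 CPM (next 174).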

How the results depend on the processing

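Over all genes, 8 were called in the fit without covariates, 302 by DESeq2, 17 with library totals alone, 35 without the TPM filter, 13 with midway values rounded up, 855 with replicates 2 to 4 alone, 1522 with a term for replicate 1, 0 with limma-voom or limma-trend, and 0 to 32 with each library left out. Members called were 0 without covariates, 1 by DESeq2, 5 with replicates 2 to 4, 7 with the term for replicate 1, and 0 with each library left out. With the replicate block, 8 members (15.7%) and 1464 genes (7.25%) were called. The 8, all lower in cKO, as were 6.45% of all genes by this call, were *Dnajb1*, *Dnajb2*, *Dnajb3*, *Dnajb13*, *Dnajc5g*, *Dnajc27*, *Hspa2* and *Hspa4l*, and of the 44 partners *Bag5*, *Hsf5*, *Hspb6*, *Hspb9* and *St13* were called, or 11.4%. The numbers come from sample titles and mark different mice. Deviations of same-numbered samples correlated at r = 0.53, 0.14, 0.04 and 0.20 for replicates 1 to 4. Their mean was 0.23, against -0.068 for differently numbered samples. Among replicates 2 to 4 alone the means were 0.012 and -0.0061, so beyond replicate 1 the numbers were not taken as a pairing. The members' median log2 fold change stayed within -0.04 to 0.01 in every alternative run.

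The log2 fold change changed sign in at least 1 alternative for 23 of the 51 tested members, 8 of the 29 named by rule and 15 of the other 22, all between -0.19 and 0.07 over the 8 libraries without covariates. The 8 were as follows, none of them called. With each library left out, *Dnajc2* ran from -0.19 to 0.16, *Dnajc7* from -0.039 to 0.076, *Hspa4* from -0.075 to 0.097, *Hspa12a* from -0.17 to 0.010, *Hspa12b* from -0.50 to 0.17, *Hspa1a* from -0.43 to 0.078 and *Hspa9* from -0.081 to 0.0079. *Dnajc7* was at -0.0031 with DESeq2 and with its size factors, -0.00039 with library totals and -0.030 with limma-trend. *Hspa4* was at -0.0018 with DESeq2 and with its size factors and -0.031 with limma-trend. Limma-trend gave -0.030 for *Dnaja2* and 0.017 for *Hspa12b*, and replicates 2 to 4 alone gave 0.022 for *Hspa12a* and 0.24 for *Hspa12b*. On TPM the exact permutation p of *Dnaja2*, *Dnajc7*, *Hspa12b* and *Hspa4* was 0.686, 0.714, 0.914 and 0.571, with the opposite direction, as in 6 of the other 22 members. The cause was not tested. Depth limits the low members, as *Hspa1l* had 29 to 61 counts per library and 5 members stayed under the TPM minimum.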
